A study of Mus musculus with 6 samples.

Results

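The potassium channel genes of the mouse, with the genes of their dedicated subunits, were followed in cultured progenitor cells of the enteric nervous system given thyroid hormone. The group was defined by name: all gene symbols made of Kcn, further letters and a number. Of the 19938 genes with a probe set of their own, 87 had such a symbol, and another 5 such symbols of the mouse gene table were not analysed here. Total RNA came from enterospheres, free-floating spheres of neural progenitor cells grown from gut muscle of newborn C57BL/6 mice up to 12 hours old. The spheres of both groups had grown for 4 and then 5 more days with EGF and FGF and had spent 1 day in differentiation medium without these factors. The T3 group then received triiodothyronine, the thyroid hormone that binds the nuclear receptors, at 100 nM for 1 day (the labels write nm, read here as nM), and the control group received none. Each group had 3 samples, each sample pooled cells of 3 mice, and each was hybridised to 1 array.

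Potassium channels let potassium leave or enter the cell along its gradient and so set the resting potential and end action potentials. Voltage-gated (Kv) channels are built of pore subunits (Kcna to Kcnv) that open on depolarisation, and their cytosolic or small membrane partners (Kcnab, Kcne, Kcnip) change gating and traffic. Inward rectifiers (Kcnj) hold the resting potential, couple it to ATP or to G proteins and, in glia, clear extracellular potassium. Tandem pore domain channels (Kcnk) carry leak current, and channels opened by calcium or sodium (Kcnma, Kcnmb, Kcnn, Kcnt, Kcnu) follow activity; in the gut wall, calcium-activated channels shape the firing of enteric neurons and the relaxation of muscle.

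All 6 arrays had similar signal, with medians over genes between 6.93 and 7.0 on the log2 scale. The standard deviation of the difference between 2 arrays over all genes was 0.137 to 0.243 within groups and 0.223 to 0.267 between groups. Progenitor markers were bright (list means of 11.29 to 11.34 on control arrays), as were neuron markers (10.44 to 10.58) and fibroblast markers (10.89 to 11.01), whereas macrophage markers lay at 4.99 to 5.07. Signals of different probe sets depend on their probes, so these levels do not rank the cell types. In whole spheres, more RNA per cell and more cells of a type cannot be told apart. The labels do not say whether the samples of a group were separate preparations, so the p-values speak only of the spread among these 6 samples, which may be technical.

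A part of this gene group differed between T3 and control, mostly upwards. Of the 87 potassium channel genes, 11 rose and 1 fell (limma, adjusted p under 0.05 over all genes), or 13.8% against 3.1% of all genes tested. In the upward direction these were 11 genes against a background of 2.28%, and downwards 1 gene against 0.823%. The other 75 did not pass. The largest rise was that of the Kv1 pore gene Kcna1, by 3.87-fold, followed by the ATP-sensitive inward rectifier gene Kcnj8, by 2.06-fold; the other 9 rises were of 1.33-fold to 1.68-fold. The gene that fell was Kcnj10, an inward rectifier of glia. The groups of 3 arrays did not overlap for 32 of the 87 genes, 25 higher with T3 and 7 lower, against 19.5% of all genes (11.9% higher and 7.55% lower). An unadjusted p under 0.05 was found for 28 of the 87 genes, against 13.7% of all genes. The median log2 change was 0.08 over the potassium channel genes and 0.0088 over all genes. Of the 87 genes, 62 (71.3%) had a log2 change above 0, against 53.3% of all genes. After centring the arrays on their 75th percentile these shares were 62.1% and 42%, and after a renewed quantile normalization 75.9% and 55.9%.

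**Figure D1:**
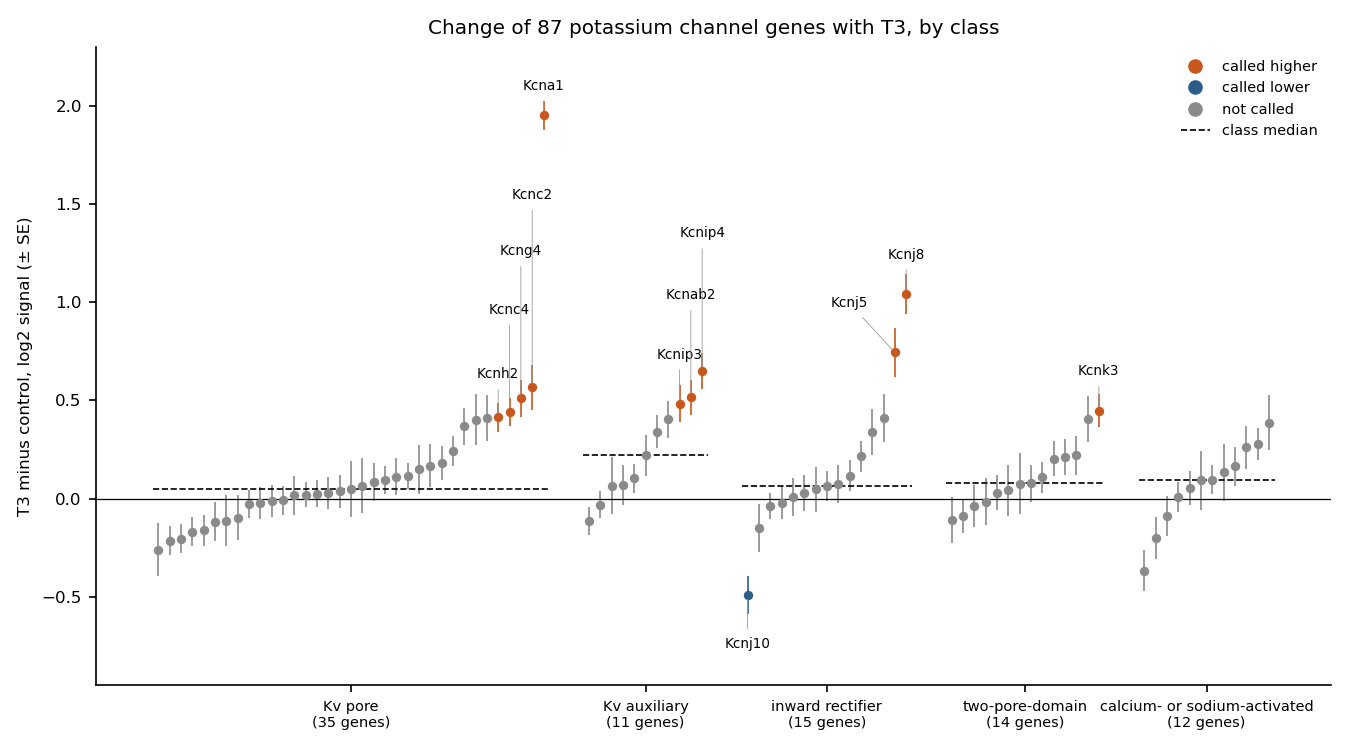
The log2 change with T3 (T3 minus control, vertical axis) of each of the 87 potassium channel genes is plotted with its SE, ordered within 5 classes, with class medians as dashed lines. Kcna1 at 1.95 and Kcnj8 at 1.04 stand above the other genes, and Kcnj10 at -0.49 is the called gene below 0.

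The calls differed in how firmly they stood. Kcna1, Kcnj8 and Kcnip4 passed when any 1 array was left out. The other 9 did not pass in all of these 6 fits. Kcnc4 lost its call in 2 of them, Kcnj5 and Kcnab2 in 3 and Kcnip3 in 4. Kcnh2, Kcng4, Kcnk3, Kcnj10 and Kcnc2 lost theirs in 5. Without control replicate 1, only Kcna1, Kcnj8 and Kcnip4 of the 12 were called. Without T3 replicate 1, T3 replicate 2 or T3 replicate 3, respectively 5, 5 and 4 of the 12 remained, and without control replicate 2 or control replicate 3, 10 and 8. Calls over all genes changed too, from 618 with all arrays to 191, 640 and 405 without control replicate 1, 2 or 3. They were 395, 262 and 256 without T3 replicate 1, 2 or 3. Lost calls therefore do not single out these genes or any 1 array.

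Promoter sequence from RefSeq (GRCm38.p6) was read for 66 of the 87 potassium channel genes and 10 of the 12 called ones; Kcna1 and Kcnk3 were not searched. Thyroid hormone receptors bind repeats of the hexamer AGGTCA, so the 250 bases before each listed start were searched for AGGTCA and its reverse complement TGACCT. At least 1 listed promoter held it in 6 of the 66 genes (9.09%) and in 1 of the 10 called genes searched, Kcnip4, against 15.8% of all 27025 genes in the table; counted per promoter, it was in 14% of all. The sequences of Kcnj8 and of Abcc9, its neighbour and the gene of its regulatory subunit, which both rose, of Kcnip4 with the hexamer in capitals, and of Kcnj10, which fell, are shown 5′ to 3′ on the strand of the gene.
Kcnj8, chr6:142571615-142571864, minus strand: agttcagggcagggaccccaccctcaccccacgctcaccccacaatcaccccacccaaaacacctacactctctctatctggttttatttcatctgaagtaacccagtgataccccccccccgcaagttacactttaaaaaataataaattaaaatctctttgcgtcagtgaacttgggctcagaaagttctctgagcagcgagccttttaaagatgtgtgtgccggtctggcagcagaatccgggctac
Abcc9, chr6:142702275-142702524, minus strand: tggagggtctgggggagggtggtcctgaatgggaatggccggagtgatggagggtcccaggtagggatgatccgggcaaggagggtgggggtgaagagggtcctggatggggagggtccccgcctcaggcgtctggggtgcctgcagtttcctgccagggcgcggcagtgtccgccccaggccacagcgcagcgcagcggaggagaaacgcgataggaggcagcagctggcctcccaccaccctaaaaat
Kcnip4, chr5:49285660-49285909, minus strand: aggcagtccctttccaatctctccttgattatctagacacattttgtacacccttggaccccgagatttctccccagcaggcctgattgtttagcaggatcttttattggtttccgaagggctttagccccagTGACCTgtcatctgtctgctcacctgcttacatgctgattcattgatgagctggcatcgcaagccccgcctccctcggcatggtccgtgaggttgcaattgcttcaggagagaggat
Kcnj10, chr1:172340960-172341209, plus strand: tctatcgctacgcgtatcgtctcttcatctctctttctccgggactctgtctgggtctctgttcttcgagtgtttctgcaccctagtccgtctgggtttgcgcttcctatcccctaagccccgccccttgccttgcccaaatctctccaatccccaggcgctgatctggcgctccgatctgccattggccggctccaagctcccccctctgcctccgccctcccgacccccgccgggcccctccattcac
In Kcnip4 the hexamer reads TGACCT, so AGGTCA is on the other strand, and its first base lies 117 bases before the listed start, which is 1 of 2 listed for this gene. A match describes the letters only, and the lack of one says nothing of binding elsewhere.

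The Kv1 family (Kcna) makes low-threshold channels of axons and nerve terminals. Kcna1 (probe set 10548047) had log2 values of 9.24, 9.31 and 9.14 on the control arrays and of 11.13, 11.19 and 11.23 with T3. Every T3 array thus lay well over every control array, and the spread within a group was far smaller than the gap. The log2 change was 1.95 ± 0.07 (SE, 95% interval 1.78 to 2.12; adjusted p = 1.28e-05, limma). The other 7 Kcna genes did not pass, with log2 changes of -0.26 to 0.17. Kcna2, which forms mixed channels with Kcna1 in axons, was bright at 10.38 ± 0.10 (SD, n = 3) in controls and had a log2 change of -0.01 (95% interval -0.19 to 0.17; adjusted p = 0.984, limma). Kcna6, another member of the family in neurons, was at 11.10 ± 0.04 (SD, n = 3) and changed by 0.03 (95% interval -0.15 to 0.21; adjusted p = 0.952, limma). The small changes of Kcna2 and Kcna6 turned sign when some arrays were left out (Kcna6 also under another centring), and a second probe set of Kcna2 gave -0.00062. Kcna4, with a log2 change of -0.26 (adjusted p = 0.476, limma), and Kcna3, at -0.02 (adjusted p = 0.969, limma), likewise did not pass. Relative to each of the other 7 Kcna genes, Kcna1 was higher on every T3 array than on every control array, by 1.79 to 2.21 on the log2 scale on average; for each such pair the exact two-sided permutation test gave p = 0.10, the smallest that 3 against 3 arrays can give. Over all 87 pairs of genes compared, the smallest adjusted p of the permutation test was 0.126, so no pair could pass in this design. Kcna1 was paired with its relatives because it was called on these same arrays, so the separation is a description only.

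With Kcna1, 5 of the 35 Kv pore genes were called, all of them higher (14.3% against 3.1% of all genes). The other 4 rose by smaller amounts than Kcna1. Kcnc2 and Kcnc4 belong to the Kv3 family, whose channels close fast and allow high firing rates. Kcnc4 had values of 7.32, 7.37 and 7.37 without and 7.83, 7.85 and 7.71 with T3, a log2 change of 0.44 ± 0.07 (SE; adjusted p = 0.0147, limma). Kcnc2 had 6.42, 6.86 and 6.72 without and 7.34, 7.18 and 7.17 with T3, a change of 0.57 ± 0.11 (SE; adjusted p = 0.0372, limma). In both genes the groups did not overlap. The third gene of the family, Kcnc1, changed by 0.02 (95% interval -0.13 to 0.18).

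Kcnh2, the ERG channel that repolarises heart muscle and also acts in gut smooth muscle and interstitial cells, had values of 8.72, 8.78 and 8.91 without and 9.20, 9.27 and 9.18 with T3, a log2 change of 0.41 ± 0.08 (SE; adjusted p = 0.0252, limma). Of 3 markers of interstitial cells of Cajal, Ano1 rose by 0.43 (adjusted p = 0.0291, limma), a call lost in 5 of 6 fits without 1 array, and Kit and Etv1 did not pass; their mean level was 9.95 to 10.12 on control and 10.19 to 10.26 on T3 arrays, and their part in the change of Kcnh2 was not tested. The other 6 Kcnh genes did not pass, with changes of -0.21 to 0.18. Kcng4, a silent subunit that makes channels only together with Kv2 subunits, was dim, with 5.84, 6.08 and 5.98 without and 6.46, 6.36 and 6.61 with T3, a change of 0.51 ± 0.09 (SE; adjusted p = 0.0252, limma). Its relatives Kcng1 at 0.41 (adjusted p = 0.135, limma) and Kcng3 at 0.40 (adjusted p = 0.182, limma) did not pass, although for both the groups did not overlap, and Kcng2 was at 0.04. Kcnb2, a Kv2 pore subunit of the kind they join, had a log2 change of -0.17 (adjusted p = 0.384, limma). Neither Kv4 gene of A-type current, Kcnd2 and Kcnd3, passed, with changes of 0.08 and 0.09, nor did Kcnd1 at -0.0092. Of the Kv7 genes, which carry the M current that acetylcholine suppresses, Kcnq5 had a change of 0.37 (adjusted p = 0.0877, limma) and Kcnq3 one of -0.20 (adjusted p = 0.238, limma); neither passed, and the groups did not overlap in either.

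The auxiliary subunits of Kv channels held 3 of the rises among 11 genes, or 27.3% called against 3.1% of all genes. The inward rectifiers, at 20%, had 2 genes called higher and 1 lower of 15. With so few calls these shares do not rank the classes. The median log2 change of the auxiliary subunits was 0.22. KChIP proteins (Kcnip) bind calcium and Kv4 channels. Kcnip4 had log2 values of 6.23, 6.57 and 6.41 on control arrays and 7.08, 7.06 and 7.02 with T3, a change of 0.65 ± 0.09 (SE; adjusted p = 0.00915, limma). The T3 arrays were close together, over all controls. Kcnip3, also known as the transcriptional repressor DREAM, had 8.66, 8.62 and 8.82 without and 9.03, 9.21 and 9.31 with T3, a change of 0.48 ± 0.09 (SE; adjusted p = 0.0325, limma). Kcnip1 was dim, at 5.16 ± 0.04 (SD, n = 3) in controls, and did not pass at 0.40 (adjusted p = 0.0610, limma); Kcnip2 was at 0.10. The Kv4 pore genes that these proteins serve did not pass, as given above.

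Kcnab2, a cytosolic beta subunit that helps Kv1 channels reach the axon, had values of 7.60, 7.71 and 7.71 without and 8.29, 8.01 and 8.26 with T3. Its groups did not overlap and its log2 change was 0.52 ± 0.09 (SE; adjusted p = 0.0214, limma). Kcnab1, which also speeds Kv1 inactivation, was at 8.37 ± 0.08 (SD, n = 3) in controls, with a change of 0.34 (adjusted p = 0.0750, limma), and Kcnab3 at 0.22 did not pass either. The 4 Kcne genes, single-span subunits best known with Kv7 channels, were dim, with control means from 4.65 to 6.49, and changed by -0.11 to 0.07; none was called by limma and none had an unadjusted p under 0.05.

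**Figure D2:**
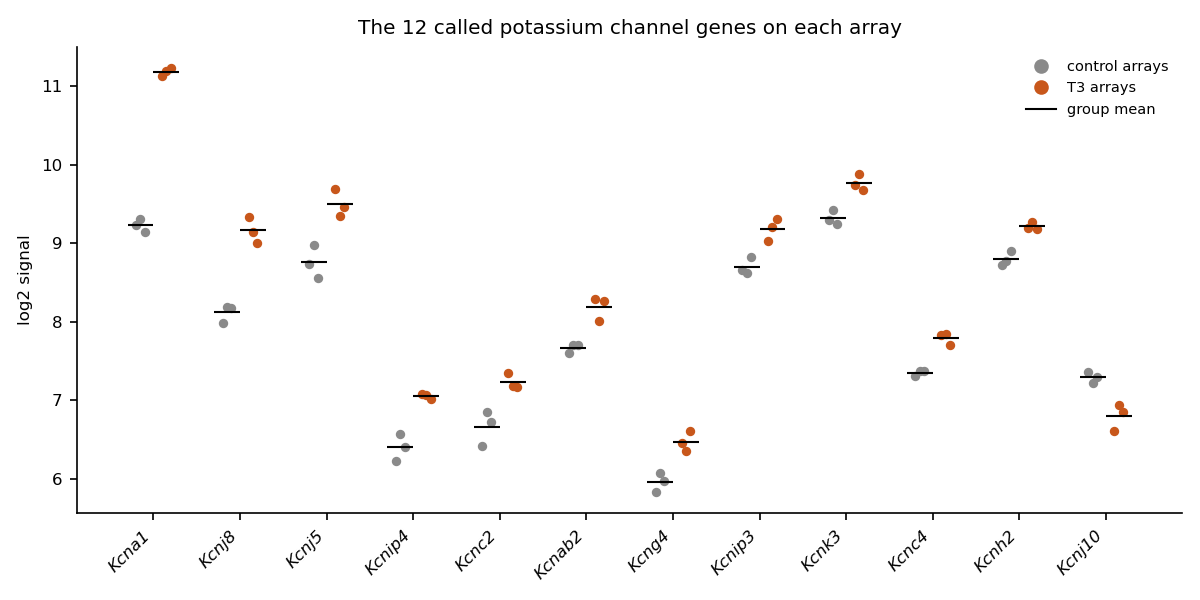
Log2 signal (vertical axis) of the 12 called potassium channel genes is plotted for each control array (grey) and each T3 array (orange), with group means as lines. The 2 groups do not overlap for any of these 12 genes, which were chosen by their calls on the same arrays. Over all genes, the groups do not overlap for 19.5%. The gap is widest for Kcna1, from 9.31 on the highest control array to 11.13 on the lowest T3 array.

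Inward rectifiers gave calls in both directions, 2 higher and 1 lower among 15 genes (20% called against 3.1% of all genes). Kcnj8, the pore of an ATP-sensitive channel of vascular and other smooth muscle and of pericytes (probe set values of 7.99, 8.19 and 8.18 on the control arrays), was at 9.34, 9.14 and 9.01 with T3. The log2 change was 1.04 ± 0.10 (SE, 95% interval 0.81 to 1.27; adjusted p = 0.00186, limma). Its regulatory subunit gene Abcc9, a sulfonylurea receptor, rose as well, from 8.28, 8.18 and 8.38 to 8.67, 8.74 and 8.68, a change of 0.41 ± 0.08 (SE; adjusted p = 0.0252, limma), with a call lost in 5 of the 6 fits without 1 array. The other such pair, Kcnj11 at 0.03 (95% interval -0.18 to 0.24) and Abcc8 at 0.18 (adjusted p = 0.566, limma), did not pass. Since Kcnj8 and Abcc9 mark pericytes in many tissues, other pericyte genes were read beside them. Of 6, none was higher by limma, and Cspg4 was lower at -0.48 (adjusted p = 0.00709, limma); their mean log2 level was 7.17 to 7.27 on control and 7.05 to 7.11 on T3 arrays. At an unadjusted p under 0.05, 1 of these genes was higher, Rgs5 at 0.29, and 3 were lower, Cspg4 included. The pericyte markers Higd1b and Vtn were dim, at 4.27 and 5.08 in controls. Of 6 smooth muscle genes, Myh11 rose (0.60) and Acta2 (-0.38) and Tagln (-0.72) fell, with list means of 7.54 to 7.67 and 7.60 to 7.67. The calls of Myh11 and Acta2 were lost in each of the 6 fits without 1 array. Cnn1 at 0.46 (adjusted p = 0.0565, limma) and Actg2 at 0.28 (adjusted p = 0.167, limma) did not pass, and in both the groups did not overlap. Their part in the change of Kcnj8 was not tested.

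Kcnj5 encodes a G protein-gated channel subunit through which transmitters such as acetylcholine slow firing. Its values were 8.74, 8.98 and 8.55 without and 9.69, 9.35 and 9.46 with T3, a log2 change of 0.74 ± 0.13 (SE; adjusted p = 0.0191, limma). The spread in each group was among the widest of the called genes, but the groups did not overlap. Of the subunits it can join, Kcnj3 was at 8.55 ± 0.04 (SD, n = 3) in controls with a change of 0.21 (95% interval 0.03 to 0.40; adjusted p = 0.275, limma), and Kcnj6 and Kcnj9, both dim, changed by -0.04 and 0.06.

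Kcnj10, the Kir4.1 channel with which glia take up potassium, moved the other way. It had 7.37, 7.22 and 7.29 without and 6.61, 6.95 and 6.85 with T3, a log2 change of -0.49 ± 0.10 (SE, 95% interval -0.71 to -0.27; adjusted p = 0.0329, limma). The lowest control array was above the highest T3 array by a gap narrower than the spread of the T3 arrays, and without 1 array the adjusted p reached 0.153. The glial markers did not pass: none of S100b, Gfap, Fabp7 and Erbb3 was called by limma, 0 had an unadjusted p under 0.05, and their mean level was 9.95 to 10.15 on control and 9.92 to 10.06 on T3 arrays. Kcnj16, with which Kcnj10 forms mixed channels, was dim and changed by -0.02. Of the classical inward rectifiers, Kcnj2 had a change of 0.41 (adjusted p = 0.141, limma) from a low signal of 5.32 ± 0.25 (SD, n = 3), and Kcnj12 one of 0.0057. The changes of the 11 genes that rose exceeded that of Kcnj10 by 0.91 to 2.44 on the log2 scale, a description only, since these genes were called in opposite directions.

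Among the 14 tandem pore domain genes, only Kcnk3 was called, and it rose (7.14% called against 3.1% of all genes). Kcnk3 encodes the acid-sensitive TASK-1 leak channel and had 9.30, 9.42 and 9.24 without and 9.74, 9.88 and 9.68 with T3, a log2 change of 0.45 ± 0.08 (SE; adjusted p = 0.0262, limma). Both groups were narrow and did not overlap. Kcnk9, the close relative TASK-3, was dim, at 5.72 ± 0.24 (SD, n = 3) in controls, and at 0.41 did not pass (adjusted p = 0.136, limma). Kcnk2, the mechanosensitive TREK-1, at 0.22 (adjusted p = 0.385, limma), its relative Kcnk10 at 0.21 (adjusted p = 0.373, limma) and Kcnk13 at 0.20 (adjusted p = 0.376, limma) did not pass. The other 9 changed by -0.11 to 0.11.

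No calcium- or sodium-activated channel gene of 12 was called by limma, against 3.1% of all genes. In so few genes a count of 0 is near that share and sets the class apart from no other. Of the 12 genes, 4 had an unadjusted p under 0.05, 3 higher and 1 lower, against 13.7% of all genes. Kcnn3, the small-conductance channel of enteric neurons and of PDGFRA-positive interstitial cells, was the brightest of them at 9.57 ± 0.10 (SD, n = 3) in controls. Its values of 9.50, 9.52 and 9.68 without and 9.76, 9.93 and 9.84 with T3 did not overlap, and the log2 change was 0.28 ± 0.08 (SE; adjusted p = 0.140, limma). Kcnn2 had a change of 0.39 (adjusted p = 0.252, limma) with overlapping groups. Kcnma1, the pore of the large-conductance BK channel, had a change of 0.26 (adjusted p = 0.350, limma) on its brighter probe set and of -0.11 on a second one with a control mean of 3.91. Of its beta subunits, the neuronal Kcnmb4 was at -0.37 ± 0.10 (SE; adjusted p = 0.120, limma) with groups that did not overlap, and the smooth muscle Kcnmb1 was at -0.20 (adjusted p = 0.482, limma).

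Most potassium channel probe sets were not bright. By mean signal over the 6 arrays, 9 of the 87 genes lay in the lowest quartile of all genes (under 5.09), 48 in the next, 20 in the third and 10 in the highest (from 8.76). Signals of different probe sets also depend on the probes, so this says where the measurements lie and not how transcripts compare. The called genes were 0, 3, 4 and 5 of these, while over all genes 0.361%, 3.11%, 5.32% and 3.61% of the 4 quartiles were called. Whether dim probe sets were above background is not known, and array background compresses their differences. A missing call of a dim gene such as those of the Kcne group or Kcnj16 is therefore no measure of a missing change. Kcna6, Kcna2 and Kcnq3 were bright and were not called.

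**Figure D3:**
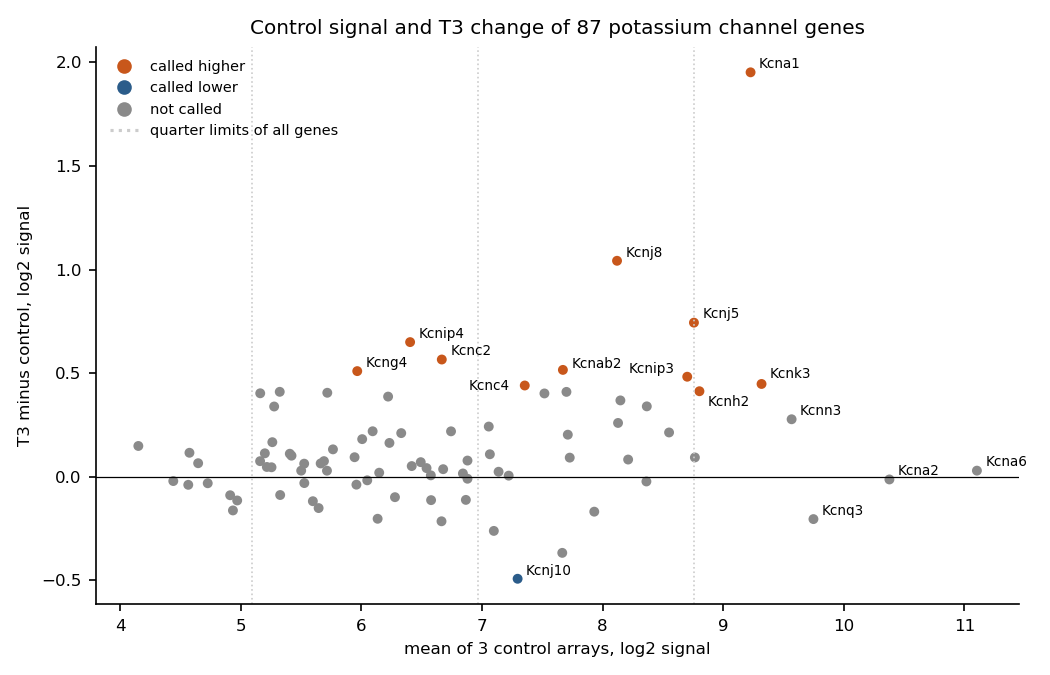
The log2 change with T3 (vertical axis) is plotted against the mean log2 signal of the 3 control arrays (horizontal axis) for the 87 genes, with dotted lines at the quartile limits of all genes. The called genes lie between control means of 5.96 and 9.32, and the brightest genes, Kcna6 at 11.10 and Kcna2 at 10.38, lie next to the line of no change.

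Several potassium channel genes lie next to each other in the genome, and most measured neighbours of the called genes were not called. Kcna1 lies between Kcna5 and Kcna6 in the RefSeq gene order of GRCm38.p6, and neither was called: Kcna5, which was dim, changed by 0.11 (95% interval -0.10 to 0.33), and Kcna6 is given above. Kcnj9, next to Kcnj10, changed by 0.06 (95% interval -0.12 to 0.24), and Kcnj1, next to Kcnj5, by 0.12 (95% interval -0.06 to 0.29). Kcnj8 lies between Abcc9 and Ldhb, a lactate dehydrogenase gene, and here both neighbours rose, Ldhb by 0.54 ± 0.09 (SE; adjusted p = 0.0201, limma). Of the 48 nearest measured coding genes, 2 on each side of the 12 called genes, 4 were called, or 8.33% against 3.1% of all genes. Besides Abcc9 and Ldhb these were Chd5 beside Kcnab2, at 0.44, and Ppargc1a, a coactivator of mitochondrial genes and the next but one from Kcnip4, at 0.93.

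**Figure D4:**
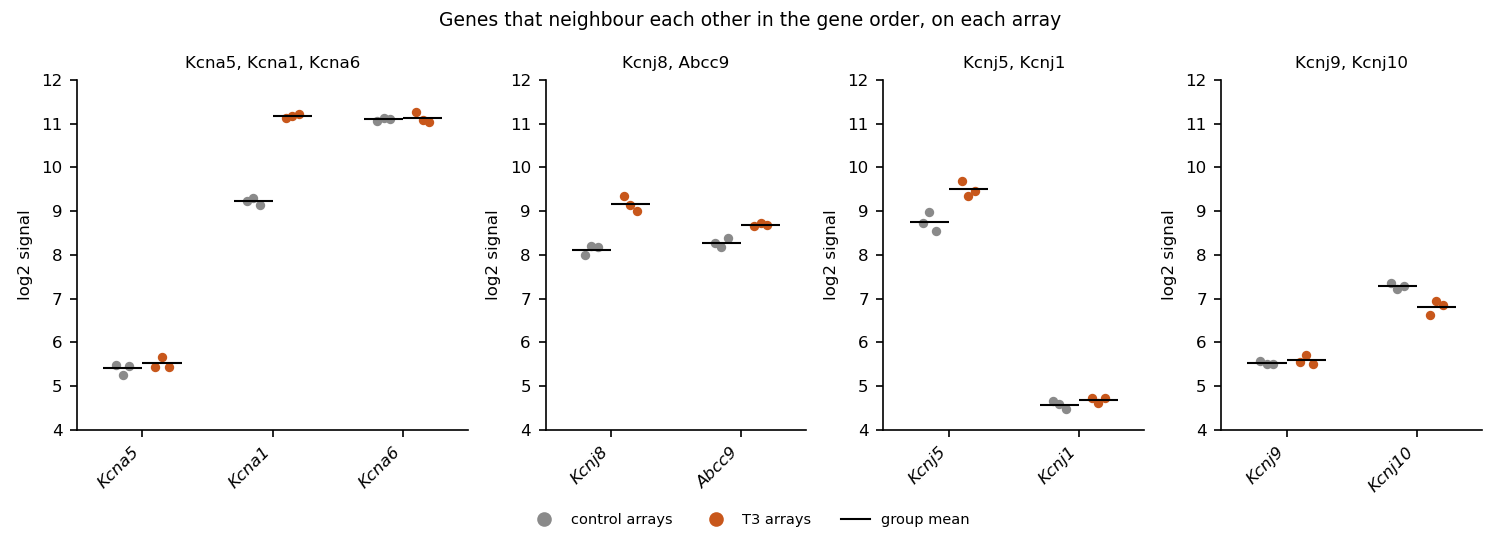
Log2 signal (vertical axis) on each control (grey) and T3 (orange) array is plotted for 4 sets of adjacent genes, with group means as lines. Kcna1 moved from 9.23 to 11.18 between 2 neighbours whose means moved by 0.11 and 0.03, Kcnj8 and Abcc9 both moved up, and the means of Kcnj1 beside Kcnj5 and of Kcnj9 beside Kcnj10 moved by 0.12 and 0.06.

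Proteins that work with potassium channels were read from a list of 52 genes, chosen with earlier results of these data known. Of the list, 47 genes were measured. Of these, 10 rose and none fell by limma (21.3% against 3.1% of all genes), with 19 higher and 2 lower at an unadjusted p under 0.05; the list median was 0.16. Of 13 genes of Kv1 clustering proteins or of the LGI and ADAM complexes beside them, 4 rose (30.8% against 3.1% of all genes). Lgi3, a secreted ligand found with axonal Kv1 channels, rose by 0.82 ± 0.10 (SE), Adam11, a membrane protein that places Kv1 channels at nerve terminals, by 0.81 ± 0.10 (SE), and Lgi4, a ligand of myelinating glia, by 0.60 ± 0.07 (SE), with adjusted p of 0.00514, 0.00417 and 0.00414 (limma); these 3 passed when any 1 array was left out. Cntnap2, the CASPR2 protein that gathers Kv1 channels beside the node, rose by 0.48 ± 0.09 (SE; adjusted p = 0.0228, limma), a call lost in 5 of 6 fits without 1 array. The scaffold genes Dlg1 at -0.19 and Dlg4 at 0.17 did not pass.

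The largest change of the list was that of Lrrc55, a gamma subunit that lets BK channels open at lower voltage. It had 6.15, 6.47 and 6.65 on control arrays and 7.52, 8.06 and 8.04 with T3, a log2 change of 1.45 ± 0.17 (SE; adjusted p = 0.00424, limma), and it passed when any 1 array was left out. The BK pore gene Kcnma1 itself did not pass, as given above, nor did the other 3 gamma subunit genes, at -0.08 to 0.30. Ank3, the ankyrin that anchors Kv7 and sodium channels at the axon's initial segment, rose by 0.50 ± 0.08 (SE; adjusted p = 0.0150, limma), a call lost without control replicate 1 and without T3 replicate 3, while Akap5 and Slc5a3, partners of the same channels, were at -0.06 and -0.21 and did not pass. Of the Kv4 partners, Dpp6 was at 0.43 (adjusted p = 0.145, limma) and Dpp10 at -0.0052, whose sign turned with the scaling. Of 7 genes of G protein signalling to Kcnj5 and its relatives none was called by limma, 2 had an unadjusted p under 0.05, and Rgs7 at 0.47 (adjusted p = 0.0727) and Gng3 at 0.30 (adjusted p = 0.0859) came nearest. Of 4 Kv2 partners and Kv regulators and of 4 anchors of glial inward rectifiers none was called by limma, and 0 of these 8 had an unadjusted p under 0.05.

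Of 7 measured genes of sodium pump subunits and potassium cotransporters, 3 rose (42.9% against 3.1% of all genes). Slc12a2, the sodium-potassium-chloride cotransporter, rose by 0.69 ± 0.11 (SE; adjusted p = 0.0126, limma), a call lost without control replicate 1. The sodium pump beta subunits Atp1b2 and Atp1b1 rose by 0.56 ± 0.10 (SE) and 0.48 ± 0.09 (SE), with adjusted p of 0.0224 and 0.0314 (limma), calls lost in 5 of 6 fits without 1 array. The neuronal potassium-chloride cotransporter Slc12a5 was at 0.16 (adjusted p = 0.641, limma).

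**Figure D5:**
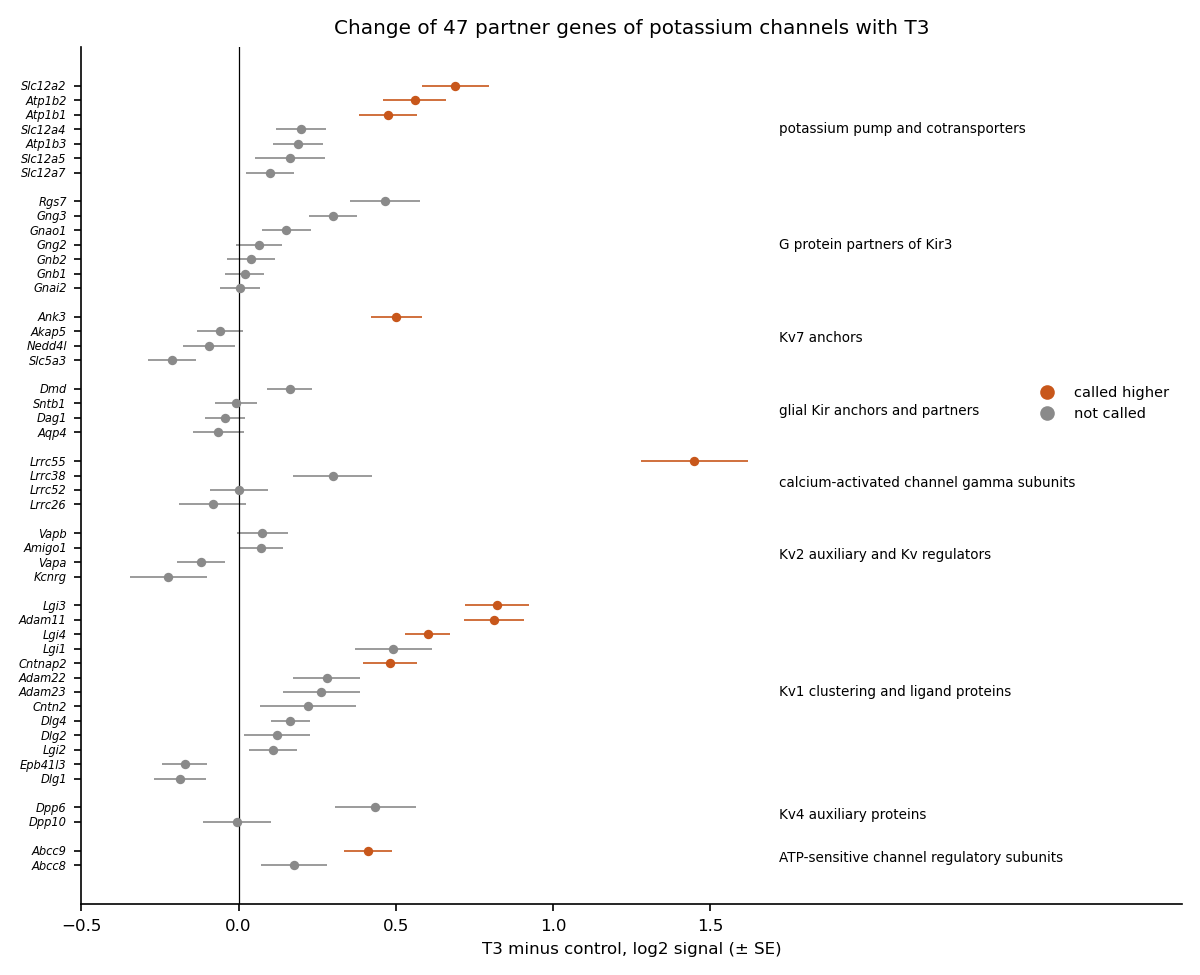
The log2 change with T3 (horizontal axis, ± SE) is plotted for 47 partner genes of potassium channels in 9 sub-lists, with called genes in orange. Lrrc55 at 1.45, Lgi3 at 0.82 and Adam11 at 0.81 lie farthest to the right, and no gene was called on the lower side.

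Neuron markers were read beside these values, since many of the called genes are neuronal. Of 7, Prph rose by 0.94 ± 0.10 (SE; adjusted p = 0.00248, limma) and Snap25 by 0.33 ± 0.07 (SE; adjusted p = 0.0395, limma), the latter a call lost in each of the 6 fits without 1 array; Tubb3, Elavl4, Uchl1, Gap43 and Stmn2 did not pass, with changes of -0.09 to 0.25. At an unadjusted p under 0.05, 3 of the 7 neuron markers were higher, Stmn2 included, and 0 were lower. The groups did not overlap for Stmn2. The mean level of the 7 markers was 10.44 to 10.58 on control and 10.68 to 10.74 on T3 arrays. Of 6 measured progenitor markers none was called by limma and 1, Ret, had an unadjusted p under 0.05. Among the markers of fibroblasts (5), endothelium (5), macrophages (5) and epithelium (4), limma called 1, the endothelial Kdr at -0.41 (adjusted p = 0.0152), a call lost in 3 of 6 fits without 1 array. The part of cell composition in the changes was not tested.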

How the data were processed

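Total RNA of 6 samples, 3 with T3 and 3 controls, was hybridised to 1 Affymetrix mouse gene array each. The deposited values are log2 signals per probe set, which the authors made with RMA in Partek 6.5, per the submitters' processing notes; no RMA setting is stated in those notes. The values were used as deposited. Of 35556 probe sets, 21789 had 1 gene symbol in the platform annotation, 1621 had several and 12146 were not listed. For each of 19938 genes the probe set of highest mean over the 6 arrays was kept (999 genes had more than 1), with no filter on dim genes. Similar sequences within a channel family may share probe signal, which was not examined. A fold is that of normalized signal and is compressed for dim genes.

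The comparison of T3 and control used the linear models and moderated variances of limma 3.58.1 (R 4.3.3), with Benjamini-Hochberg adjustment over all 19938 genes, and genes with an adjusted p under 0.05 are called. Differences between pairs of genes were tested by exact two-sided permutation (scipy 1.17.1), adjusted over 87 pairs. On simulated arrays of 19938 genes, 200 of them changed, the T3 comparison recovered 83.8% of log2 changes of 0.5, 99.6% of changes of 1 and 100% of changes of 1.5. The simulated noise was normal and independent for each gene and array, with the moderated variances of the fit itself. Compression of dim signals and unequal array quality were not simulated, so these shares may be higher than in the real data. A missing call therefore does not show a missing change. Genes named are the called ones, in each class up to 4 of smallest p and the 2 of highest control signal, called partner genes, the 2 of smallest p of each partner sub-list, and nearest neighbours. Relatives and partner subunits of called genes are named besides these and were chosen after their values were seen. The genes, lists and classes were chosen with earlier results of these data known. Alternatives were a replicate block, other scalings, filters on dim genes, probe set choice, variance models, array weights and leaving out each array. Protein sequences were not used here, so a planned count of pore signatures was not made.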

Additional observations from a re-analysis of the deposited data

How the results depend on the processing

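Of the single-gene values recomputed under the alternatives, 573 kept direction and side of the threshold, 69 lost a call, 25 gained one and 9 turned sign. Array weights raised the calls to 3548 over all genes, 30 higher and 6 lower among potassium channel genes and 21 higher and 3 lower among partner genes; the cause was not tested. Leaving out 1 array gave 191 to 640 calls over all genes, 3 to 12 higher and 0 to 1 lower among potassium channel genes with a median change of 0.0478 to 0.1261, and 4 to 11 higher and 0 lower among partner genes. Correlations between same-numbered control and T3 arrays, in deviations from the group means, were 0.179, 0.017 and 0.000. Those between arrays of different number were -0.176 to 0.114. With 3 arrays a group, these values cannot settle whether equal numbers mark a shared preparation, which the labels do not say. The replicate block called 472 genes in all, 9 higher and 0 lower among potassium channel genes, and 6 higher among partner genes. Kcnc2, Kcnh2 and Kcnj10 lost their calls with this block. Without the dimmest 50% of genes, which leaves 30 potassium channel genes, their median was 0.2283. Kcnip3 lost its call after 75th percentile centring, and the scalings kept the other 11. Signs turned for Kcna6 (-0.0005 after 75th percentile centring, -0.0395 to 0.0794 without 1 array), Kcna2 (-0.0600 to 0.0376 without 1 array), Kcnma1 (-0.1146 on its other probe set) and Dpp10 (0.0066 after renewed quantile normalization, 0.1069 with array weights, -0.0690 to 0.1199 without 1 array). Signal over background was not known, and 3 arrays a group limit the precision.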
